A study of Mus musculus with 12 samples.

Results

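The Slc25 genes encode the mitochondrial carrier family, the transporters that move metabolites across the inner membrane of the mitochondrion. They were taken as every gene with the symbol Slc25a followed by a number and at least 10 counts summed over the 12 libraries, which gave 44 of the 22607 genes in the count table. Slc25a54, with 10 counts, lay just inside that limit, and Slc25a21, with 4 counts, just outside it. Of the 44, 40 were abundant enough to be tested among 16007 genes. The 4 untested members were Slc25a48 with 34 counts in all, Slc25a43 with 30, Slc25a18 with 16 and Slc25a54 with 10.

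RNA was sequenced from the tibialis anterior, a shin muscle made mostly of fast fibres, of C57BL/6 male mice aged 13 weeks. Each muscle carried a vector for Crtc2, which assists the transcription factor Creb1 as a coactivator, or a GFP vector without it. The mice fasted on alternate days (ADF) for 3 rounds or ate ad libitum. The 4 groups of 3 libraries were ADF Crtc2, ADF GFP, fed Crtc2 and fed GFP, so every muscle carried a vector and no library came from an untransduced muscle. The labels do not give the vector's promoter, whether the libraries of a group came from separate animals, or whether Crtc2 and GFP muscles shared animals; p-values therefore measure a spread that may be only technical.

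Because the inner membrane is closed to most solutes, fuels, nucleotides, cofactors and iron reach the matrix through these carriers. The adenine nucleotide carrier returns ATP to the cytosol in exchange for ADP. The aspartate/glutamate carrier works in the malate-aspartate shuttle, which brings reducing equivalents into the matrix, and the carnitine/acylcarnitine carrier passes long-chain fatty acids to the enzymes of beta-oxidation. In muscle, these routes tie ATP supply to contraction and to the fuel at hand.

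Libraries held 24232450 to 34610417 counts, and 3 counts, the limit that a count of 0 allows, came to 0.0814 to 0.13 CPM (counts scaled to library size, with TMM factors). That limit covers counting error only. Crtc2 itself was at 42.8, 40.6 and 31.4 CPM in ADF Crtc2 muscle, against 19.7, 16.1 and 23.6 in ADF GFP muscle, and at 64.9, 58.2 and 77.9 CPM in fed Crtc2 muscle, against 29.2, 17.3 and 24.02 in fed GFP muscle. It was higher in each Crtc2 library than in the GFP libraries of the same diet, as labelled. In Crtc2 muscle, every ADF library lay below every fed library, so the diets differed in Crtc2 itself there, while they overlapped in GFP muscle. The part of this in the diet comparisons and the interaction was not tested. The 9 fast fibre markers, Acta1 and Ckm among them, summed to 183595 to 204848 CPM in ADF Crtc2 muscle, 141280 to 210720 in ADF GFP muscle, 127901 to 228904 in fed Crtc2 muscle and 142273 to 195411 in fed GFP muscle. Within these overlapping sums, 2 of 9 passed, in opposite directions and with each vector, where 11% of all genes passed in Crtc2 muscle and 7.12% in GFP muscle. Acta1, skeletal muscle actin, averaged 57063 ± 1210 CPM in ADF Crtc2 muscle, against 28219 ± 4570 in fed Crtc2 muscle, and 49976 ± 10050 CPM in ADF GFP muscle, against 23230 ± 2695 in fed GFP muscle, and rose (1.02 and 1.11 as log2 fold change, adjusted p = 0.000489 and 0.000357). Mylpf, a fast myosin light chain, averaged 17251 ± 1248 CPM in ADF Crtc2 muscle, against 26932 ± 6637 in fed Crtc2 muscle, and 15164 ± 2577 CPM in ADF GFP muscle, against 26512 ± 3105 in fed GFP muscle, and fell (-0.64 and -0.81, adjusted p = 0.0279 and 0.00945). Libraries detected 14313 to 17226 genes. Genes that averaged 1 to 3 CPM were at 0 for 21.8 to 30.3% of them in ADF Crtc2 libraries and 6.06 to 19.6% in ADF GFP libraries, against 5.12 to 36.2% in fed Crtc2 and 12.3 to 32.8% in fed GFP libraries; the part of this in the results was not tested. The protocols name 2 library kits without assigning them to libraries, so a kit difference that followed the diets and the diet cannot be told apart. In bulk muscle, fewer cells of a type and less RNA per cell cannot be told apart either.

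Crtc2 acts through Creb1, which is known to bind the cAMP response element (CRE) TGACGTCA, so RefSeq promoters on GRCm38.p6, 250 bases before to 50 after each start, were searched on both strands. Windows were found for 34 of the 44 members. Slc25a27, Slc25a37, Slc25a44 and Slc25a46, which passed in a diet comparison below, had none and were not searched. The full CRE was in 2 of the 34 members (5.88%), Slc25a25 and Slc25a36, against 2.03% of all 27025 genes with a window. Its core TGACG, which every full CRE also holds, was in 12 members (35.3%), against 23% of genes. The nuclear receptor hexamer AGGTCA was in 4 members (11.8%), Slc25a34, Slc25a39, Slc25a45 and Slc25a47, against 18.1% of genes, and the GC box GGGCGG in 29 members (85.3%), against 38.2% of genes. The ERR element, DR1 and the GRE, which were also searched, were in 0 of the 34 members, against 0.466%, 0.0481% and 0.537% of genes. The NRF1 element, searched too, was in 1 member (2.94%), Slc25a3, against 5.19% of genes. At shares of genes this low, so few matches in 34 members do not show a shortage. The 27025 genes are more than the 22607 of the count table, so they are not limited to genes found or tested in this muscle. No share among the tested genes was taken, so these shares compare unlike sets. A match is a description of these letters and not a binding site. The 250 bases before the start are printed, 5′ to 3′, for both CRE members, for Slc25a34, which had the widest rise under ADF among the called members, and for Slc25a12, which rose under ADF with both vectors and whose window held none of the motifs searched. Capitals mark full CRE, AGGTCA and GC box matches on either strand. All 4 lie on the minus strand, at chr2:32424067-32424316 for an inner start of Slc25a25, chr9:97111042-97111291 for Slc25a36, chr4:141623835-141624084 for Slc25a34 and chr2:71367756-71368005 for Slc25a12.
Slc25a25: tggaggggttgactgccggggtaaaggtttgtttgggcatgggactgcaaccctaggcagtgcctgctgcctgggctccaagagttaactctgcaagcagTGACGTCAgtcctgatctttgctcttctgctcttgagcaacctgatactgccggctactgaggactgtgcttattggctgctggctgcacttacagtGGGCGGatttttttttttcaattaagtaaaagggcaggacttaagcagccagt
Slc25a36: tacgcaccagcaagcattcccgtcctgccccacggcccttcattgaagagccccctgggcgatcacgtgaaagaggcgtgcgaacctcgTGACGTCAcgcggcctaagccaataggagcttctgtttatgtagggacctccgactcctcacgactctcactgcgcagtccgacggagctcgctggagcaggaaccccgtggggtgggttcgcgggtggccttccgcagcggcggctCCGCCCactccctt
Slc25a34: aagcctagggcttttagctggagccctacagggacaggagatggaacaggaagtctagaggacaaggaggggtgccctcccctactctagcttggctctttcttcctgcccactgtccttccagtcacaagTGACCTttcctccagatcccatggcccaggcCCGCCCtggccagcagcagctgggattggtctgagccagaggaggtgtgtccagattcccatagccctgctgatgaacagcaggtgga
Slc25a12: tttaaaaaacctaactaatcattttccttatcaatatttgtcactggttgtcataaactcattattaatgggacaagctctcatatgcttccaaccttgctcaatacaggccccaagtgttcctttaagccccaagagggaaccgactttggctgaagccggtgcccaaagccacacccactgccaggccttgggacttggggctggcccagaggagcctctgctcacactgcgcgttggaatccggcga
The CRE began 150 bases before the start of Slc25a25 and 161 before that of Slc25a36, and the AGGTCA match, read on the opposite strand, 119 before that of Slc25a34.

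Per kilobase of exon, 1 carrier made up most of the family in this muscle. Slc25a4, the adenine nucleotide carrier of heart and skeletal muscle (chromosome 8, 46206797 to 46211284, GRCm38), averaged 2893 CPM per kilobase, or 79.4% of the family's summed level. Slc25a11, the oxoglutarate/malate carrier, held 6.25%, Slc25a3, the phosphate carrier, 6.18%, Slc25a12, the aspartate/glutamate carrier, 1.96%, and Slc25a5, the adenine nucleotide carrier of dividing tissues, 0.77%. On this scale Slc25a11 and Slc25a3 did not differ beyond their spread. The share of Slc25a11 was 6.56 ± 0.64% in ADF Crtc2 muscle, where that of Slc25a3 was 5.91 ± 0.63% (SD, n = 3). The length used takes in all annotated exon bases of a gene, 2120 for Slc25a11 and 5550 for Slc25a3. Before division by length, Slc25a3 averaged 1242 CPM and Slc25a11 486 CPM, so their order and the shares depend on that length. All members together took 1.03 to 1.12% of the counts of ADF Crtc2 libraries and 0.788 to 0.977% of ADF GFP libraries, against 0.832 to 1.09% of fed Crtc2 and 0.941 to 1.07% of fed GFP libraries. Of the 44, 2, Slc25a4 and Slc25a3, had the highest means, 3 more averaged above 100 CPM, 20 between 10 and 100, 14 between 1 and 10, 1 between 0.1 and 1 and 4 under 0.1.

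**Figure D1:**
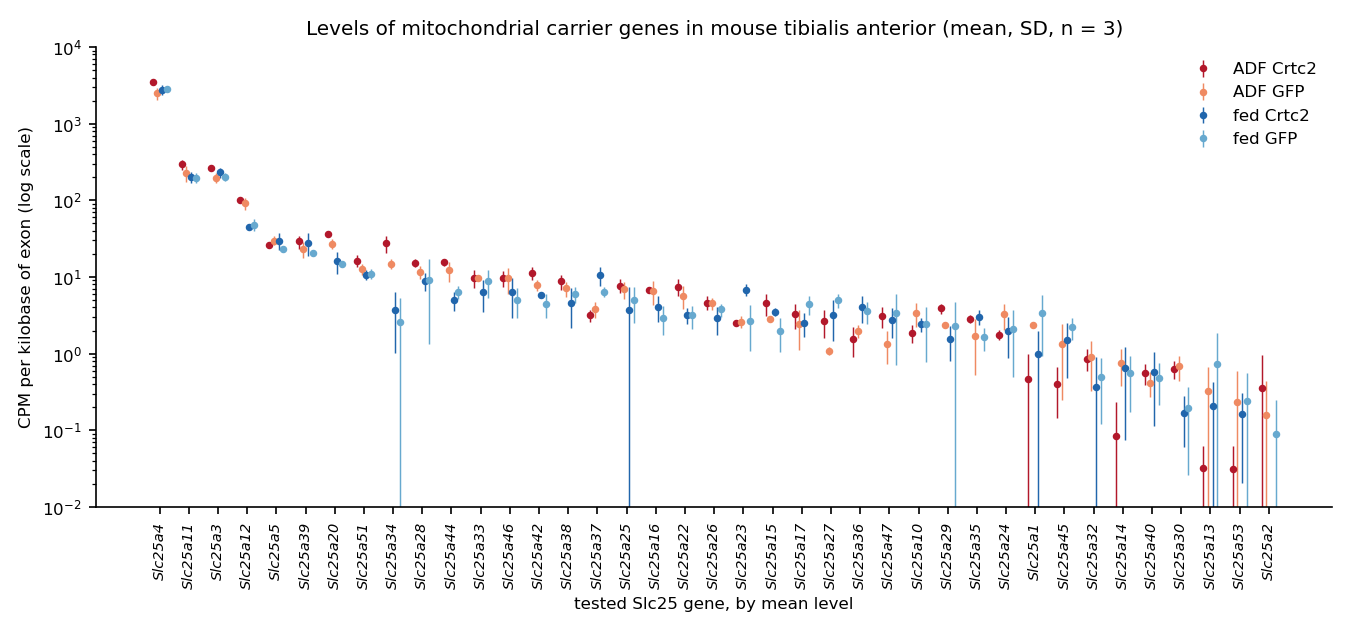
Mean level of tested carrier genes in CPM per kilobase of exon, on a log axis, for ADF Crtc2, ADF GFP, fed Crtc2 and fed GFP muscle; points are means and bars SD over 3 libraries. Slc25a4, at a mean of 2893, stands above Slc25a11 at 229 and Slc25a3 at 224; Slc25a2 was at 0 in fed Crtc2 muscle, which the log axis cannot show, and bars end at the axis floor of 0.01.

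ADF against feeding asks how the carriers of muscle with each vector differ between the diets. In Crtc2 muscle, 5 members rose and 3 fell: the carriers of aspartate and glutamate (Slc25a12), acylcarnitine (Slc25a20), branched-chain amino acids (Slc25a44), glutamate (Slc25a22) and coenzyme A (Slc25a42) rose, and the iron carrier Slc25a37, the pyrimidine nucleotide carrier Slc25a36 and the ATP-Mg/phosphate carrier Slc25a23 fell. In GFP muscle, Slc25a12 and Slc25a20 rose and Slc25a27, a relative of the uncoupling proteins, fell. The 8 of 40 members (20%) in Crtc2 muscle stand against 11% of all genes tested, of which 6.3% rose and 4.68% fell. The 3 of 40 (7.5%) in GFP muscle stand against 7.12%, which is near the background, with 4.06% that rose and 3.06% that fell. The members' median log2 fold change was 0.38 in Crtc2 muscle, where that of all genes was -0.13, and 0.22 in GFP muscle, where that of all genes was -0.01. Averaged over both vectors, a comparison chosen after results of these data were known, 8 members rose and 3 fell (27.5%, against 18% of all genes, of which 9.38% rose and 8.64% fell). No member passed the test of the diet by vector interaction, so a call with 1 vector alone does not show a difference between the vectors.

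**Figure D2:**
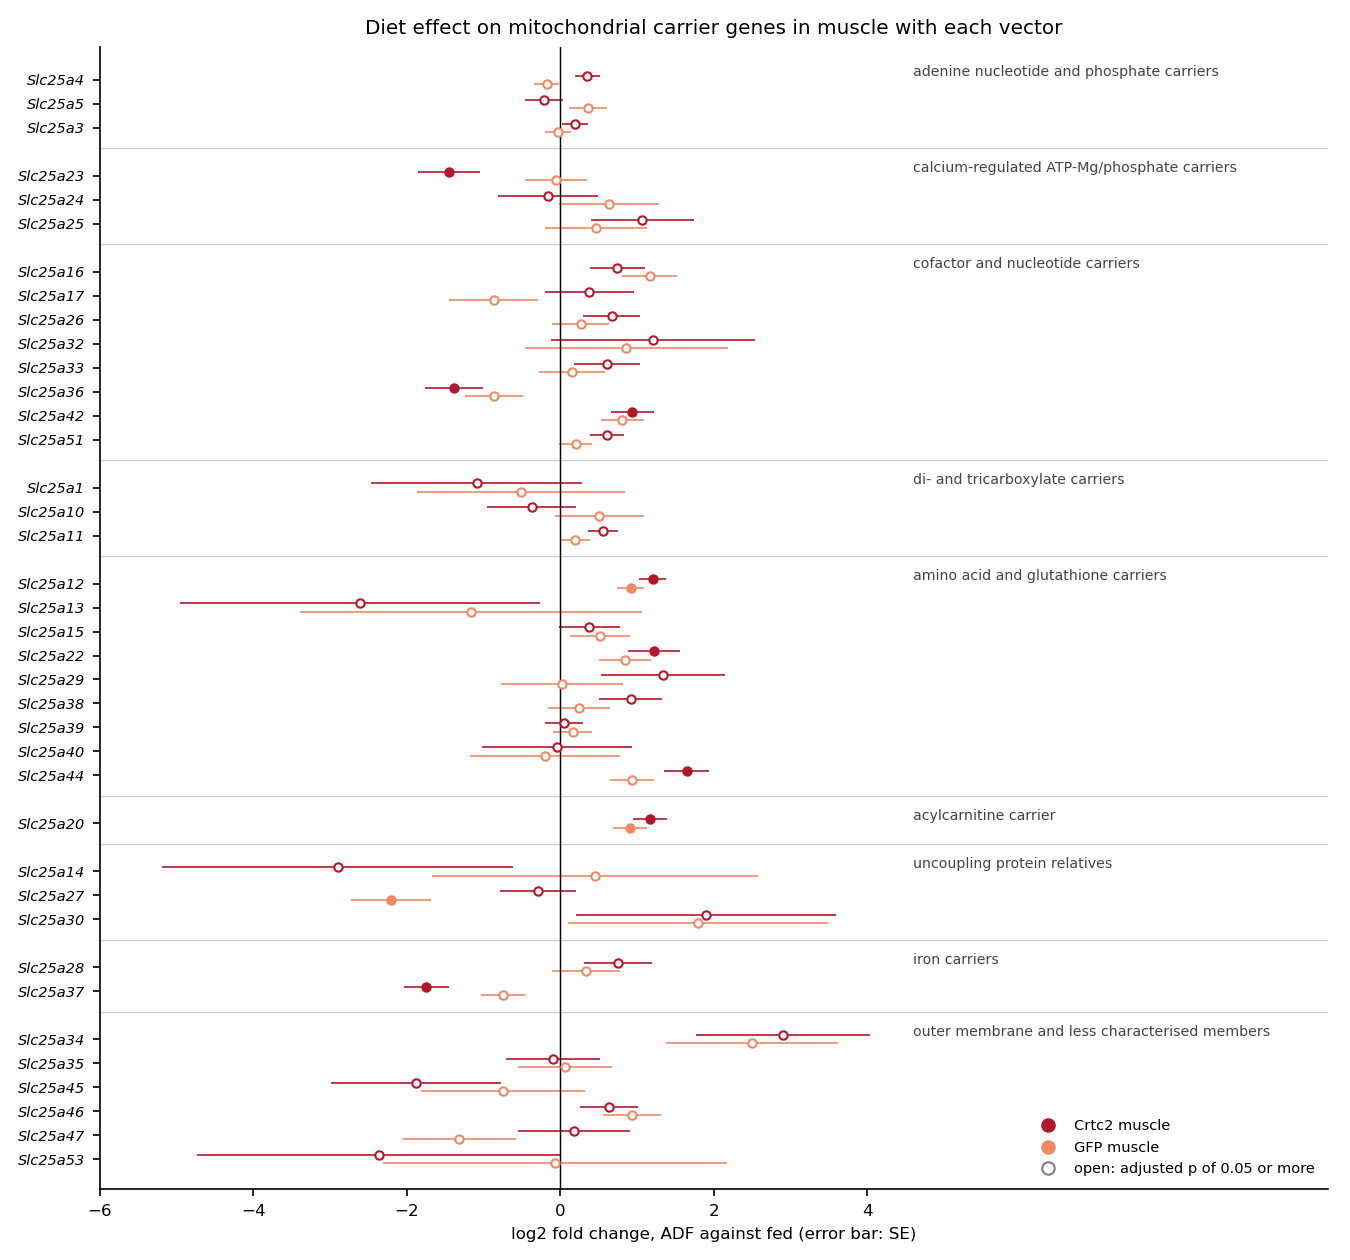
Log2 fold change of ADF against fed, with its SE, for carrier genes grouped by role, in Crtc2 muscle (dark red) and GFP muscle (orange); filled points passed an adjusted p of 0.05. Slc25a12 and Slc25a20 are filled with both vectors, and the low-count members, such as Slc25a13, Slc25a14 and Slc25a53, have the widest bars; Slc25a2, at 0 in all fed Crtc2 libraries, is left out.

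Of the 10 amino acid and glutathione carriers tested, 3 rose in Crtc2 muscle, where 6.3% of all genes did, and 1 rose in GFP muscle, where 4.06% did. Slc25a12, which exports aspartate from the matrix in exchange for glutamate (chromosome 2, 71271063 to 71367749), had 762, 751 and 743 CPM in ADF Crtc2 muscle, against 317, 339 and 322 in fed Crtc2 muscle. With the GFP vector it had 752, 715 and 537 CPM in ADF muscle, against 291, 415 and 355 in fed muscle. All 6 ADF libraries lay above all 6 fed libraries, the lowest of them ADF GFP replicate 3. The rise was 2.31-fold in Crtc2 muscle (log2 fold change 1.21 ± 0.17, SE as for all that follow, adjusted p = 7.05e-05) and 1.89-fold in GFP muscle (0.92 ± 0.17, adjusted p = 0.00175). It kept its call in every alternative run and without any 1 library.

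Slc25a44, known from brown fat as the carrier of branched-chain amino acids into mitochondria (chromosome 3, 88410498 to 88425139), had 57.7, 60.2 and 48.5 CPM in ADF Crtc2 muscle, against 13.7, 16.5 and 22.9 in fed Crtc2 muscle. In GFP muscle it had 58.6, 37.1 and 35.9 CPM under ADF, against 24.3, 26.6 and 17.99 when fed. The diets did not overlap with either vector, and ADF GFP replicate 1 lay apart from its 2 companions. The rise was 3.13-fold in Crtc2 muscle (1.65 ± 0.30, adjusted p = 0.000721). In GFP muscle the value was 0.93 ± 0.29 and did not pass (adjusted p = 0.0557); over both vectors it was 1.29 ± 0.21 (adjusted p = 0.000115).

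Slc25a22, which carries glutamate with a proton (chromosome 7, 141429744 to 141437892), had 46.6, 33.1 and 55.0 CPM in ADF Crtc2 muscle, against 14.3, 20.4 and 23.1 in fed Crtc2 muscle. Its values in GFP muscle were 47.1, 27.4 and 27.4 CPM under ADF, against 25.7, 18.2 and 12.8 when fed. No ADF library fell within the fed range of its vector, although 2 of the ADF GFP libraries lay close to the highest fed one. The change was 1.22 ± 0.34 in Crtc2 muscle (adjusted p = 0.0221) and 0.84 ± 0.34 in GFP muscle, which did not pass (adjusted p = 0.159). Without ADF Crtc2 replicate 1 or 3, or fed Crtc2 replicate 1 or 2, the adjusted p in Crtc2 muscle lay between 0.0548 and 0.114, and with scaling by library totals it was 0.079. Over both vectors the call held without any 1 library (1.03 ± 0.24, adjusted p = 0.00375).

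The other amino acid and glutathione carriers did not pass in either diet comparison. Slc25a13, the second aspartate/glutamate carrier, best known from liver, was near the detection limit, with 0, 0.158 and 0.213 CPM in ADF Crtc2 muscle, 2.66, 0.239 and 0.869 in ADF GFP muscle, 0.704, 1.64 and 0 in fed Crtc2 muscle and 0.709, 0 and 7.72 in fed GFP muscle. Its highest library, fed GFP replicate 3, held 229 of its 430 counts. Slc25a39, a glutathione carrier, had 89.6, 62.3 and 88.1 CPM in ADF Crtc2 muscle, against 99.1, 50.4 and 82.0 in fed Crtc2 muscle, and 77.7, 49.2 and 63.7 CPM in ADF GFP muscle, against 61.1, 52.4 and 57.1 in fed GFP muscle, with the diets overlapping. Slc25a29, which carries basic amino acids, had 10.2, 11.7 and 8.50 CPM in ADF Crtc2 muscle, against 4.69, 1.82 and 5.48 in fed Crtc2 muscle, and 6.08, 6.13 and 6.11 CPM in ADF GFP muscle, against 3.82, 0.918 and 13.2 in fed GFP muscle. Its Crtc2 libraries did not overlap between the diets and its GFP libraries did, and neither change passed. Slc25a38, which carries glycine for haem synthesis, was at 0.92 in Crtc2 muscle without overlap of the diets (adjusted p = 0.168) and at 0.24 in GFP muscle. The ornithine carrier Slc25a15 and the glutathione carrier Slc25a40 overlapped with both vectors. Slc25a2, an ornithine carrier, had 37 counts in ADF Crtc2 replicate 2, 22 in ADF GFP replicate 2, 11 in fed GFP replicate 3 and 0 elsewhere.

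Slc25a20, the carnitine/acylcarnitine carrier (chromosome 9, 108662088 to 108684641), had 158, 182 and 181 CPM in ADF Crtc2 muscle, against 79.5, 100 and 51.4 in fed Crtc2 muscle. With the GFP vector it had 142, 146 and 108 CPM under ADF, against 69.1, 69.9 and 72.7 when fed. All 6 ADF libraries lay above all 6 fed ones, with the widest spread in fed Crtc2 muscle. The rise was 2.25-fold in Crtc2 muscle (1.17 ± 0.22, adjusted p = 0.00104) and 1.88-fold in GFP muscle (0.91 ± 0.22, adjusted p = 0.0122). Without ADF GFP replicate 1 or 2 the adjusted p in GFP muscle was 0.0522 or 0.0615, and with scaling by library totals 0.0539.

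**Figure D3:**
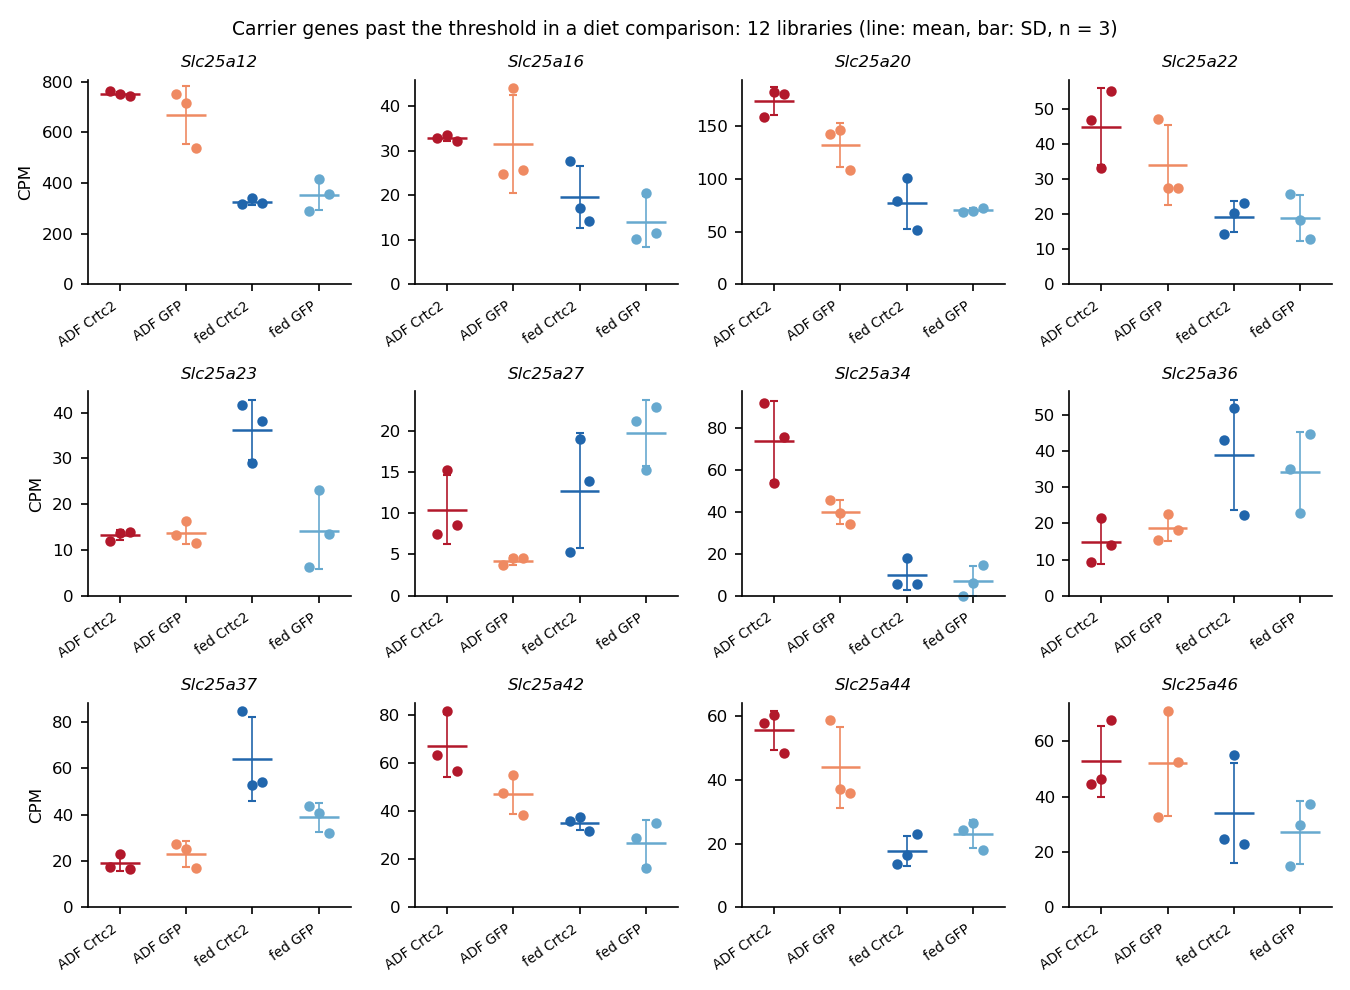
CPM in each of the 12 libraries, by group, for the 12 carrier genes that passed the threshold in a diet comparison, that averaged over both vectors included; lines are means and bars SD over 3 libraries, with bars cut at 0. Slc25a12, Slc25a20, Slc25a22, Slc25a34, Slc25a42 and Slc25a44 have every ADF library above every fed library, and Slc25a37 has every ADF library below every fed library.

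Slc25a34, a carrier without a settled substrate (chromosome 4, 141618824 to 141623821), had the widest rise of the members past the threshold. It had 91.5, 53.8 and 75.6 CPM in ADF Crtc2 muscle, against 5.83, 18.1 and 5.63 in fed Crtc2 muscle, and 45.5, 39.6 and 34.2 CPM in ADF GFP muscle, against 0.0394, 6.22 and 14.8 in fed GFP muscle. Every ADF library was above every fed one, and fed GFP replicate 1 stood apart with a single count. Neither vector alone passed in the fit of all 4 groups. The values were 2.90 ± 1.14 in Crtc2 muscle (adjusted p = 0.159) and 2.50 ± 1.12 in GFP muscle (adjusted p = 0.261). Of 9 other settings, 2 called it in Crtc2 muscle, no filter on low counts and the compared groups alone. In GFP muscle 1 of 9 did, no filter on low counts. Fed GFP replicate 1 is outside the Crtc2 comparison but enters the estimate of spread shared by all 12 libraries. Over both vectors the rise passed narrowly (2.70 ± 0.80, adjusted p = 0.0469), lost its call without any 1 of 10 libraries, and was at an adjusted p of 0.0628 with scaling by library totals. Without fed GFP replicate 1 the values were 2.90 in Crtc2 muscle (adjusted p = 0.000304) and 1.92 in GFP muscle (adjusted p = 0.0326); leaving out any other library left the adjusted p at up to 0.343 and 0.422.

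Among the 9 tested cofactor and nucleotide carriers, 1 rose and 1 fell in Crtc2 muscle, where 6.3% of all genes rose and 4.68% fell. None passed in GFP muscle, where 7.12% of all genes did. Slc25a42, which carries coenzyme A into the matrix (chromosome 8, 70184340 to 70212305), had 63.4, 81.8 and 56.6 CPM in ADF Crtc2 muscle, against 36.1, 37.5 and 31.8 in fed Crtc2 muscle, and 47.4, 55.1 and 38.6 CPM in ADF GFP muscle, against 28.8, 16.5 and 35.3 in fed GFP muscle. The diets did not overlap with either vector. Its change was 0.94 ± 0.28 in Crtc2 muscle (adjusted p = 0.0316) and 0.81 ± 0.28 in GFP muscle (adjusted p = 0.0885). The call in Crtc2 muscle was lost without any 1 of 5 libraries of that comparison, ADF Crtc2 replicate 3 being the exception, and with scaling by library totals (adjusted p = 0.189). The call over both vectors was kept throughout (0.87 ± 0.20, adjusted p = 0.0029).

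Slc25a36, a pyrimidine nucleotide carrier and a holder of the full CRE printed above (chromosome 9, 97074961 to 97111157), had 9.24, 21.6 and 14.1 CPM in ADF Crtc2 muscle, against 42.9, 51.8 and 22.2 in fed Crtc2 muscle. In GFP muscle it had 15.5, 22.7 and 18.2 CPM under ADF, against 35.1, 22.8 and 44.6 when fed. The highest ADF and the lowest fed library nearly met with both vectors. It fell 2.61-fold in Crtc2 muscle (-1.38 ± 0.38, adjusted p = 0.0201), a call lost without ADF Crtc2 replicate 1 or 3 or fed Crtc2 replicate 1 or 2, and was at -0.87 ± 0.38 in GFP muscle (adjusted p = 0.198). Slc25a33, the other pyrimidine nucleotide carrier, had 24.2, 15.9 and 15.1 CPM in ADF Crtc2 muscle, against 5.83, 14.7 and 15.5 in fed Crtc2 muscle, and 20.05, 16.7 and 18.2 CPM in ADF GFP muscle, against 9.06, 19.1 and 21.5 in fed GFP muscle, and overlapped between the diets with both vectors.

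Slc25a16, a proposed coenzyme A carrier, passed over both vectors only (0.95 ± 0.26, adjusted p = 0.0111, and 0.0554 without ADF GFP replicate 2). It had 32.9, 33.6 and 32.2 CPM in ADF Crtc2 muscle, against 27.6, 17.1 and 14.3 in fed Crtc2 muscle, and 24.7, 44.2 and 25.8 CPM in ADF GFP muscle, against 10.1, 20.6 and 11.5 in fed GFP muscle. The NAD carrier Slc25a51 did not pass, at an adjusted p of 0.0729 over both vectors. It averaged 90.2 ± 14.9 CPM in ADF Crtc2 muscle, against 59.0 ± 8.3 in fed Crtc2 muscle, and 69.4 ± 11.4 CPM in ADF GFP muscle, against 60.4 ± 8.7 in fed GFP muscle (SD, n = 3 each). The diets did not overlap in Crtc2 muscle (0.61, adjusted p = 0.0789) and overlapped in GFP muscle (0.20, adjusted p = 0.711). Slc25a26, which carries S-adenosylmethionine, Slc25a32, known as a folate carrier, and Slc25a17, a carrier of peroxisomes, had intervals of the log2 fold change that included 0 with both vectors.

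Of the iron carriers, 1 of 2 passed, and it fell, in Crtc2 muscle, where 4.68% of all genes fell. Slc25a37, mitoferrin 1, known for its role in haem synthesis of red cell precursors (chromosome 14, 69241848 to 69285112), had 17.4, 23.0 and 16.7 CPM in ADF Crtc2 muscle, against 84.8, 52.8 and 54.0 in fed Crtc2 muscle. With the GFP vector it had 27.2, 25.2 and 16.8 CPM under ADF, against 43.8, 40.7 and 32.0 when fed. Every ADF library was below every fed library. Slc25a37 fell 3.35-fold in Crtc2 muscle (-1.75 ± 0.29, adjusted p = 0.00037), kept that call without any 1 library, and was at -0.75 ± 0.29 in GFP muscle (adjusted p = 0.135). Its exons overlap those of Gm31748 by 381 bases and of Gm27223 by 92 on the opposite strand, and without the strand setting of the counting, reads of these genes cannot be told apart there.

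Slc25a28, mitoferrin 2, the form of most other tissues, had 59.3, 49.1 and 62.2 CPM in ADF Crtc2 muscle, against 34.8, 24.4 and 41.9 in fed Crtc2 muscle, and 53.0, 35.3 and 43.0 CPM in ADF GFP muscle, against 67.9, 24.4 and 11.4 in fed GFP muscle. The diets did not overlap in Crtc2 muscle and did in GFP muscle, where fed replicate 1 was the highest of all 12 libraries. Neither change passed. The value in GFP muscle was 0.34 (adjusted p = 0.779), and it lay between -0.08 without fed GFP replicate 3 (adjusted p = 0.968) and 1.29 without fed GFP replicate 1 (adjusted p = 0.0288). Over both vectors it was 0.55 (adjusted p = 0.262), and 1.02 without fed GFP replicate 1 (adjusted p = 0.00248, the lowest of a range up to 0.448). Per kilobase, the ratio of Slc25a37 to Slc25a28 was 0.182, 0.292 and 0.167 in ADF Crtc2 muscle, against 1.52, 1.35 and 0.801 in fed Crtc2 muscle. In GFP muscle it was 0.32, 0.445 and 0.244 under ADF, against 0.402, 1.04 and 1.75 when fed, where fed replicate 1 lay within the ADF range. The 6 erythroid markers, haemoglobin genes among them, summed to 69.9 to 176 CPM in ADF Crtc2 muscle, against 71.1 to 214 in fed Crtc2 muscle, and to 120 to 396 CPM in ADF GFP muscle, against 74.0 to 153 in fed GFP muscle; 0 of the 5 tested passed in either diet comparison, and their part in the result was not tested.

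**Figure D4:**
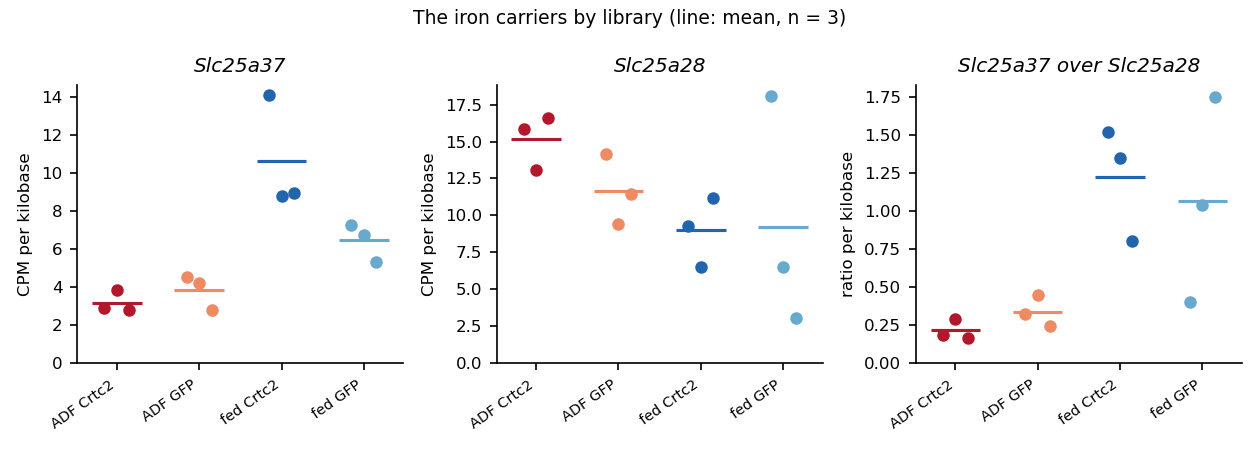
Slc25a37 and Slc25a28 in CPM per kilobase and their ratio in each of the 12 libraries, by group; lines are means over 3 libraries. The ratio lies at or below 0.445 in the 6 ADF libraries and at or above 0.402 in the 6 fed ones.

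Of the calcium-regulated ATP-Mg/phosphate carriers, which adjust the adenine nucleotide content of the matrix, 1 of 3 passed. It fell in Crtc2 muscle, where 4.68% of all genes fell. Slc25a23 had 12.05, 13.8 and 14.01 CPM in ADF Crtc2 muscle, against 41.6, 28.9 and 38.1 in fed Crtc2 muscle, a fall of 2.73-fold (-1.45 ± 0.41, adjusted p = 0.0232). In GFP muscle it had 13.4, 16.3 and 11.5 CPM under ADF, against 6.22, 23.1 and 13.4 when fed (-0.05 as log2 fold change). The fed Crtc2 libraries were thus the 3 highest of the 12, and the other 3 groups overlapped. The call was lost without any 1 of 5 libraries of its comparison, fed Crtc2 replicate 2 being the exception, with adjusted p between 0.0648 and 0.0915. Its exons share 168 bases with Gm17168 on the opposite strand.

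Slc25a25, another ATP-Mg/phosphate carrier and the other holder of a full CRE, had 62.2, 72.4 and 47.2 CPM in ADF Crtc2 muscle, against 6.26, 18.5 and 62.0 in fed Crtc2 muscle, and 52.2, 41.1 and 68.9 CPM in ADF GFP muscle, against 45.6, 54.5 and 17.3 in fed GFP muscle. The diets overlapped with both vectors, and fed Crtc2 replicate 3 lay among the ADF values. Neither change passed (1.07 ± 0.67, adjusted p = 0.38, and 0.47 ± 0.67, adjusted p = 0.806). Without fed Crtc2 replicate 3 the value in Crtc2 muscle was 2.29 (adjusted p = 0.00694, the lowest of a range up to 0.634 with each library left out in turn). The 3 members of this group were completed by Slc25a24, which overlapped between the diets with both vectors.

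The abundant carriers of ADP, ATP and phosphate did not pass under ADF. Slc25a4 had 8672, 7800 and 8448 CPM in ADF Crtc2 muscle, against 7554, 6065 and 5924 in fed Crtc2 muscle, and 6860, 5854 and 4752 CPM in ADF GFP muscle, against 6600, 6652 and 6518 in fed GFP muscle. On this TMM scale its ADF Crtc2 libraries were the 3 highest of the 12. The TMM factors were 0.838, 0.888 and 0.894 there, against 1.03, 1.19 and 0.981 in fed Crtc2 muscle. Without them the ranking did not hold. Fed Crtc2 replicate 1, with 193218 of 24771100 counts, had a larger share than ADF Crtc2 replicate 3, with 237590 of 31484693. The log2 fold change was 0.35 in Crtc2 muscle (95% interval 0.01 to 0.69, adjusted p = 0.191) and -0.18 in GFP muscle (-0.52 to 0.16, adjusted p = 0.637). Slc25a3 had 1340, 1494 and 1552 CPM in ADF Crtc2 muscle, against 1366, 1410 and 1072 in fed Crtc2 muscle, and 1167, 1223 and 903 CPM in ADF GFP muscle, against 1003, 1122 and 1248 in fed GFP muscle. It overlapped between the diets with both vectors, with intervals of -0.16 to 0.54 and -0.38 to 0.32.

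Slc25a5 had 46.7, 40.4 and 40.3 CPM in ADF Crtc2 muscle, against 58.2, 53.5 and 35.6 in fed Crtc2 muscle, and 43.8, 56.8 and 46.9 CPM in ADF GFP muscle, against 40.9, 38.9 and 34.8 in fed GFP muscle. The diets overlapped in Crtc2 muscle (-0.21, interval -0.72 to 0.30) and did not in GFP muscle (0.36, -0.14 to 0.87), and neither value passed. Per kilobase Slc25a4 stood 129.8 to 146.7 times above it in ADF Crtc2 muscle and 70.9 to 109.5 times in ADF GFP muscle, against 79.3 to 116.4 times in fed Crtc2 muscle and 113 to 130.9 times in fed GFP muscle. A processed copy of Slc25a5 is listed apart in the table, and how reads that match both were counted is not given in the sources used here.

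Slc25a11, the oxoglutarate/malate carrier and the second membrane step of the malate-aspartate shuttle, had 691, 519 and 662 CPM in ADF Crtc2 muscle, against 504, 390 and 375 in fed Crtc2 muscle, and 580, 494 and 360 CPM in ADF GFP muscle, against 349, 452 and 451 in fed GFP muscle. The diets did not overlap in Crtc2 muscle, where the value was 0.56 ± 0.19 (adjusted p = 0.0704), and overlapped in GFP muscle (0.20 ± 0.19, adjusted p = 0.676). The citrate carrier Slc25a1, used for lipid synthesis, had 0.691, 2.25 and 0.0711 CPM in ADF Crtc2 muscle, 4.58, 5.23 and 5.48 in ADF GFP muscle, 0, 4.27 and 2.15 in fed Crtc2 muscle and 9.53, 1.26 and 11.0 in fed GFP muscle. The dicarboxylate carrier Slc25a10 had 8.08, 4.78 and 6.47 CPM in ADF Crtc2 muscle, 16.1, 11.4 and 7.90 in ADF GFP muscle, 9.42, 6.43 and 9.18 in fed Crtc2 muscle and 14.8, 5.07 and 5.05 in fed GFP muscle. Both were low next to Slc25a11, overlapped between the diets and did not pass.

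Slc25a27, also called uncoupling protein 4 and best known from brain, had 3.68, 4.602 and 4.53 CPM in ADF GFP muscle, against 21.1, 15.2 and 22.8 in fed GFP muscle, a fall of 4.61-fold (-2.20 ± 0.52, adjusted p = 0.0103). In Crtc2 muscle it had 7.47, 15.2 and 8.60 CPM under ADF, against 5.28, 19.0 and 13.9 when fed, with the diets overlapping (-0.29 as log2 fold change). Without ADF GFP replicate 1 its adjusted p in GFP muscle was 0.0544. The other 2 relatives of the uncoupling proteins, Slc25a14 and Slc25a30, averaged at most 3.14 CPM in any group and did not pass. Slc25a30 averaged 2.87 ± 0.77 CPM in ADF Crtc2 muscle, against 0.769 ± 0.496 in fed Crtc2 muscle, and 3.14 ± 1.11 CPM in ADF GFP muscle, against 0.901 ± 0.781 in fed GFP muscle (SD, n = 3 each), without overlap between the diets.

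Slc25a46, which sits in the outer membrane and shapes the mitochondrial network, passed over both vectors only and narrowly (0.78 ± 0.27, adjusted p = 0.0465), and lost its call without any 1 of 9 libraries. In 5 of 8 other settings it did not pass either: RLE scaling, scaling by library totals, DESeq2, a minimum mean of 10 CPM and a gene length offset gave adjusted p of 0.0509 to 0.223. It had 44.4, 46.3 and 67.5 CPM in ADF Crtc2 muscle, against 24.6, 54.8 and 22.7 in fed Crtc2 muscle, and 32.7, 70.7 and 52.3 CPM in ADF GFP muscle, against 14.8, 29.6 and 37.1 in fed GFP muscle. It shares 383 exonic bases with B930094E09Rik on the opposite strand. Slc25a47, a carrier known from liver, had 6.35, 11.9 and 9.60 CPM in ADF Crtc2 muscle, 2.14, 5.89 and 4.10 in ADF GFP muscle, 10.4, 4.24 and 9.92 in fed Crtc2 muscle and 12.01, 1.36 and 16.8 in fed GFP muscle, with overlap between the diets and no call. The other tested members of this group, Slc25a35, Slc25a45 and Slc25a53, did not pass either, and Slc25a35 shares 1151 exonic bases with Rangrf on the opposite strand.

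Without regard to the threshold, 14 of 40 members had all ADF libraries above the fed ones in Crtc2 muscle and 5 had all below. Of all genes tested, 30.5% did not overlap there, 14.8% above and 15.7% below. In GFP muscle these were 9 and 3 members, where 25.6% of all genes did not overlap, 14.3% above and 11.3% below. With all 6 ADF set against all 6 fed libraries they were 7 and 1, where 9.7% of all genes did not overlap, 5.63% above and 4.07% below. The diet effects in Crtc2 and in GFP muscle share no library. Across the 40 members their Spearman correlation was 0.70 and 31 (77.5%) had the same sign, where all 16007 genes had 0.40 and 67.2%. Among the 25 members that averaged at least 10 CPM it was 0.83 with 22 of the same sign (88%), where the 7789 genes at that level had 0.67 and 74.5%. These are descriptions across genes, which share their libraries and are not independent.

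Of 14 enzymes and other proteins that work beside the carriers, 5 rose in Crtc2 muscle and 2 in GFP muscle, where 6.3% and 4.06% of all genes did, and none fell. Glud1, the glutamate dehydrogenase of the matrix, averaged 215 ± 30.8 CPM in ADF Crtc2 muscle, against 102 ± 10.8 in fed Crtc2 muscle (1.08 ± 0.18, adjusted p = 0.000393), and 176 ± 13.3 CPM in ADF GFP muscle, against 107 ± 14.1 in fed GFP muscle (0.71 ± 0.18, adjusted p = 0.0172). Got2, the matrix aminotransferase of the malate-aspartate shuttle, rose with both vectors too (0.95 ± 0.22, adjusted p = 0.00615, in Crtc2 muscle and 0.73 ± 0.22, adjusted p = 0.0434, in GFP muscle). Its cytosolic partner Got1 rose in Crtc2 muscle (0.82 ± 0.20, adjusted p = 0.00955) and was at 0.59 ± 0.20 in GFP muscle (adjusted p = 0.0844). The malate dehydrogenases of the same shuttle did not pass, with Mdh1 at 0.00 ± 0.20 and -0.23 ± 0.20 and Mdh2 at 0.39 ± 0.16 and -0.01 ± 0.16 in Crtc2 and in GFP muscle. On the carnitine route, Crat (0.85 ± 0.19, adjusted p = 0.00401) and Cpt2 (0.73 ± 0.21, adjusted p = 0.0261) rose in Crtc2 muscle, and Cpt1b, the outer membrane step of muscle, was at 0.48 ± 0.52 there and 0.83 ± 0.52 in GFP muscle without passing. Bcat2, which transaminates branched-chain amino acids beside Slc25a44, was at 0.35 ± 0.24 and -0.05 ± 0.24 and did not pass.

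**Figure D5:**
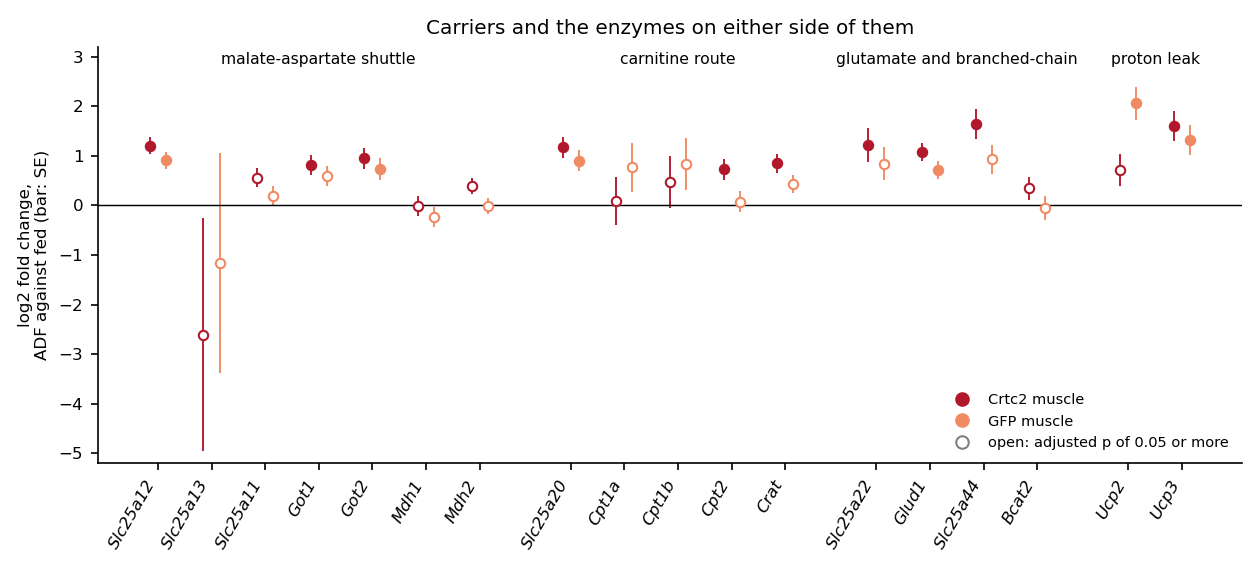
Log2 fold change of ADF against fed, with its SE, for carriers and the enzymes beside them in the malate-aspartate shuttle, the carnitine route, glutamate and branched-chain amino acid use and proton leak, in Crtc2 muscle (dark red) and GFP muscle (orange); filled points passed an adjusted p of 0.05. In the shuttle, Slc25a12 and Got2 are filled with both vectors, while Mdh1 and Mdh2 are open and lie between -0.23 and 0.39.

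Members of the same protein family that carry other symbols included the uncoupling proteins. Ucp3, the form of skeletal muscle, had 498, 400 and 465 CPM in ADF Crtc2 muscle, against 203, 165 and 79.7 in fed Crtc2 muscle, and 316, 317 and 261 CPM in ADF GFP muscle, against 71.3, 123 and 165 in fed GFP muscle. It rose with both vectors (1.61 ± 0.31, adjusted p = 0.00229, and 1.32 ± 0.30, adjusted p = 0.0131). Ucp2 had 24.8, 49.8 and 38.0 CPM in ADF Crtc2 muscle, against 18.3, 21.1 and 29.4 in fed Crtc2 muscle, and 115, 85.1 and 140 CPM in ADF GFP muscle, against 42.0, 19.1 and 20.5 in fed GFP muscle. It rose in GFP muscle (2.06 ± 0.33, adjusted p = 0.000367), not past the threshold in Crtc2 muscle (0.71 ± 0.32, adjusted p = 0.174). Among 22 other carriers and channels of the mitochondrial membranes, Vdac1, Abcb10 and Mpc1 rose in Crtc2 muscle, where 6.3% of all genes did. Sfxn2 fell in GFP muscle, where 3.06% of all genes did. Of 12 tested genes that import carrier proteins, Timm29 rose in Crtc2 muscle and Timm9 fell in GFP muscle, against the same shares of all genes.

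Markers of other fibres and cells also differed between the groups. For the diet calls below, 6.3% of all genes rose and 4.68% fell in Crtc2 muscle, and 4.06% rose and 3.06% fell in GFP muscle. The 7 slow fibre markers summed to 146 to 199 CPM in ADF Crtc2 muscle, against 245 to 479 in fed Crtc2 muscle, and to 245 to 333 CPM in ADF GFP muscle, against 235 to 538 in fed GFP muscle; 1 of 7, Tnnt1, fell in each diet comparison. The 7 T and NK cell markers summed to 0.158 to 3.34 CPM in ADF Crtc2 muscle, with Cd3g and Cd8b1 at 0, against 7.04 to 65.4 in fed Crtc2 muscle, and to 21.2 to 58.6 CPM in ADF GFP muscle, against 36.9 to 95.6 in fed GFP muscle; 1 of 7, Cd3g, fell in Crtc2 muscle and 0 passed in GFP muscle. The 8 macrophage markers summed to 84.9 to 146 CPM in ADF Crtc2 muscle, 298 to 520 in ADF GFP muscle, 112 to 206 in fed Crtc2 muscle and 226 to 299 in fed GFP muscle, and 0 of 8 passed in either diet comparison. The 6 fibroblast markers summed to 794 to 1228 CPM in ADF Crtc2 muscle, against 581 to 1704 in fed Crtc2 muscle, and to 1647 to 3473 CPM in ADF GFP muscle, against 766 to 2044 in fed GFP muscle; 1 of 6, Dcn, rose in GFP muscle and 0 passed in Crtc2 muscle, with median log2 fold changes of 0.98 and 0.32. The 7 adipocyte markers summed to 371 to 458 CPM in ADF Crtc2 muscle, against 398 to 516 in fed Crtc2 muscle, and to 277 to 521 CPM in ADF GFP muscle, against 320.2 to 580 in fed GFP muscle. Of the 6 of them tested, Cfd rose in GFP muscle and 0 passed in Crtc2 muscle, and the median log2 fold change was 1.32 and 1.65, although the sums overlapped. Fabp4 held most of each sum, at 375 ± 66 CPM in ADF Crtc2 muscle, against 454 ± 59 in fed Crtc2 muscle. In GFP muscle it was at 328 ± 125 CPM under ADF, against 403 ± 138 when fed. Adipoq, Plin1, Cidec and Cfd averaged higher under ADF with both vectors, and Retn in Crtc2 muscle only. Of 6 endothelial markers, Kdr and Esam fell in Crtc2 muscle and 0 passed in GFP muscle, with sums of 225 to 292 CPM in ADF Crtc2 muscle, against 348 to 500.3 in fed Crtc2 muscle, and of 298 to 456 CPM in ADF GFP muscle, against 282 to 573 in fed GFP muscle. For Crtc2 against GFP under ADF, 0.725% of all genes passed. There, 3 of 8 macrophage markers (Cd68, Csf1r and C1qc) and 2 of 7 slow fibre markers (Tnnt1 and Tnni1) were called lower in Crtc2 muscle. So was 1 of 7 T and NK cell markers (Cd3g). None of the 8 marker lists had a call in fed muscle, where 0% of all genes passed. The part of these markers in the changes of the carriers was not tested.

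Crtc2 against GFP asks what the coactivator changes in the carriers under each diet, and no member passed edgeR's test. Under ADF, 0 of 40 passed (0.725% of all genes tested), 3 had an unadjusted p under 0.05, and DESeq2 called 1. In fed muscle, 0 of 40 passed (0% of all genes), 2 had an unadjusted p under 0.05, and DESeq2 called 0. For the interaction, 0 of 40 passed (0% of all genes), 4 had an unadjusted p under 0.05, and DESeq2 called 0. Averaged over both diets, again chosen after results of these data were known, 0 of 40 passed (0.494% of all genes), 6 had an unadjusted p under 0.05, and DESeq2 called 0. Under ADF, 9 members had all Crtc2 libraries above and 4 all below the GFP ones, where 21.4% of all genes did not overlap, 9.6% above and 11.8% below. In fed muscle these were 4 and 1, where 8.53% did not overlap, 4.7% above and 3.84% below. Outside the Slc25 symbols, Ucp2 was lower in ADF Crtc2 than in ADF GFP muscle (-1.60 ± 0.32, adjusted p = 0.0208). It was at -0.25 ± 0.32 in fed muscle and did not pass the interaction (adjusted p = 0.52). Macrophage markers were lower in ADF Crtc2 muscle too, with 3 of 8 called and a median log2 fold change of -1.85, where all genes had -0.01. Their part in the Ucp2 difference, and that of the other marker lists, was not tested.

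The member that DESeq2 called under ADF was Slc25a4, whose log2 fold change of Crtc2 over GFP was 0.51 (95% interval 0.17 to 0.85), with an adjusted p of 0.19 in edgeR and 0.0211 in DESeq2; the other settings gave up to 0.318. All 3 ADF Crtc2 libraries given above exceeded the 3 ADF GFP libraries. The macrophage, slow fibre and T and NK cell markers called lower in ADF Crtc2 muscle went the opposite way to Slc25a4. Their part in its difference was not tested. In fed muscle the value was -0.02 (-0.36 to 0.32), and the libraries overlapped. The difference between these effects, the interaction, was 0.53 (0.05 to 1.01) and did not pass (adjusted p = 0.62).

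The other members with an unadjusted p under 0.05 were Slc25a27 (1.28, interval 0.23 to 2.33, adjusted p = 0.331) and Slc25a3 (0.41, 0.06 to 0.76, adjusted p = 0.347) under ADF. In fed muscle they were Slc25a23 (1.34, 0.50 to 2.19, adjusted p = 0.877) and Slc25a37 (0.72, 0.12 to 1.31, adjusted p = 0.877). Slc25a27, Slc25a37 and Slc25a23 had interaction values of 1.91, -0.995 and -1.39, with adjusted p of 0.551, 0.595 and 0.597. For Slc25a12 and Slc25a20, the members that rose under ADF with both vectors, Crtc2 against GFP did not pass under either diet. Slc25a12 was at 0.17 (-0.18 to 0.53) under ADF and -0.12 (-0.47 to 0.24) in fed muscle, and Slc25a20 at 0.39 (-0.06 to 0.84) and 0.13 (-0.32 to 0.58). Both CRE holders were also without a call: Slc25a25 was at 0.17 (-1.30 to 1.63) under ADF and -0.44 (-1.91 to 1.04) in fed muscle, and Slc25a36 at -0.33 (-1.10 to 0.45) and 0.19 (-0.58 to 0.96). These intervals span changes in both directions.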

How the data were processed

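RNA of 12 tibialis anterior libraries, 3 per group, was analysed. The authors deposited raw counts of reads for each Ensembl gene and did not normalize them. Tools named in the submitters' processing notes, with no role or order, are DESeq2 1.18.1, Subread 1.6.1 with featureCounts, SAMtools 1.7 and HISAT2 2.0.5, and builds GRCm38 and mm10; annotation, strand setting, multimapping and duplicate handling are not given in the sources used here. Between 68.9 and 74.7% of counts from 2 to 21 were even in each library, so low counts may stand for fewer fragments than printed; the cause was not tested.

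The members and gene lists were chosen with earlier results of these data known. The test was edgeR 4.0.16 (R 4.3.3) on these counts: filterByExpr (16007 genes), TMM scaling, a robust quasi-likelihood fit of the 4 group means over 12 libraries, and Benjamini-Hochberg adjustment over all of them, where 0.05 was the threshold. The fit gave 5 comparisons and 2 averaged ones, added after results were known. Intervals are 95% intervals of the log2 fold change. The smallest two-sided exact p for 3 against 3 libraries is 0.1, so an exact test of 1 gene alone could not reach the threshold and none was used. Levels are CPM with TMM-scaled library sizes, mean ± SD. Levels between genes are per kilobase of exon, over all annotated exon bases of a gene. Exons were those of GENCODE mouse release 21, in which 99.9% of genes were found. Values in every library were given to members past the threshold, the 6 highest per kilobase and a set of members taken whatever their result. The alternatives were DESeq2 1.42.0, other scalings, filters, a gene length offset, halved counts, a replicate block, the compared groups alone, and leaving out each library. The procedure was also run on simulated counts drawn with the means, spread and library sizes of these data. Its rates of recovery and of false calls are not given here. Some results, among them those of 1 tested member, are not reported here and not drawn; the member stays in the counts.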

Additional observations from a re-analysis of the deposited data

How the results depend on the processing

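No member changed direction where it was called, under any alternative run. Against 3 members called in GFP muscle under ADF, DESeq2 called 5, no filter on low counts 7, and a minimum mean of 10 CPM 5; leaving out each library gave 1 to 5, the lowest without ADF GFP replicate 1. Against 8 in Crtc2 muscle, other settings gave 6 to 10, and leaving out each library 4 to 9, the lowest without ADF Crtc2 replicate 1 or fed Crtc2 replicate 1. Over both vectors, against 11, leaving out each library gave 8 to 13. For Crtc2 against GFP under ADF, DESeq2 called 1 member, Slc25a4, and the other settings 0. The cause was not tested. Scaling by library totals called 2 members in GFP and 6 in Crtc2 muscle, moved the median of all genes to -0.11 and -0.42, and made 44.4% and 29.3% of all calls higher, against 57% and 57.4% with TMM. Same-numbered libraries had correlated deviations of -0.04 to 0.13, with 1 of 18 pairs above 0.1, so the numbers were not taken to pair samples; 8 of 12 libraries did correlate best with their own number, a hint from the data and not from the design. With the replicate block, 3 members were called in GFP muscle, 8 in Crtc2 muscle, 0 for either vector effect and for the interaction, and 10 over both vectors, where Slc25a34 was not called (adjusted p = 0.0782). Counts near 0 limit members under 1 CPM, for which only wide changes could be seen, and zeros reach above it: genes averaging 1 to 3 CPM were at 0 for 5.12 to 36.2% of them in single libraries.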
